A study of Mus musculus with 5 samples.

Results

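Of 10418 genomic regions that carried an acetylated-histone peak in 2 or more libraries, 383 lay at the promoters of long noncoding RNA (lncRNA) genes alone. Peaks from 5 libraries were merged where they overlapped by at least 1 bp, and a region was kept as an lncRNA promoter where it came within 3000 bp of the start site of an lncRNA gene and no closer than that to any protein-coding start site. Start sites were those of the GENCODE annotation of GRCm38, and 5 regions at the start of chromosome 9, none of which met the rule, were left out. The 383 regions belonged to 373 lncRNA genes, 10 of which had 2 regions each. For comparison, 6119 regions lay within 3000 bp of a coding start site (coding promoters) and 3620 lay beyond 3000 bp from any annotated start site (distal regions).

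The study compared memory-type CD8+ T cells (TM), made in vitro with IL-15 after activation, between wildtype (WT, 2 libraries) and TPdh-/- mice (3 libraries). TPdh-/- T cells lack Pdha1 (Pdha in the study), the X-linked gene of the E1 alpha subunit of the pyruvate dehydrogenase complex, which converts pyruvate to acetyl-CoA. The floxed allele was removed by a Cre transgene under the CD4 promoter, which acts from the CD4+CD8+ stage of the thymus onward, so cells outside the T lineage keep the gene. Adult mice of both sexes were used. By the methods for memory differentiation, OT-I cells, whose receptor recognises an ovalbumin peptide, were stimulated with that peptide before the IL-15 culture, and how the WT controls were bred is not given in the sources used here. Chromatin was precipitated with an antibody against acetylated histone. The sample labels name lysine 18 and the study's methods an antibody against acetylated lysine of histones, so which lysines the peaks report cannot be settled here. The study's text gives a larger number of samples per condition for this assay than the libraries analysed here. The labels do not say whether the libraries of a group came from separate animals, so p-values measure only the spread between these samples, which may be technical.

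lncRNAs are transcripts with no long open reading frame. Some act in the nucleus, some are the precursors from which small nucleolar RNAs (snoRNAs) or microRNAs (miRNAs) are cut, and some regulate a neighbouring gene in cis. Acetylation of histone lysines uses acetyl-CoA, loosens the contact of histones with DNA and marks active promoters and enhancers, and active lncRNA promoters carry it as coding promoters do.

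The peak lists held between 4920 and 15962 peaks, without read numbers, so depth is unknown and values have no counting error. WT replicate 1 had the longest list and TPdh-/- replicate 1 the shortest. Among promoters of T cell markers, 8, 5, 2, 3 and 6 of 8 had a peak in WT replicates 1 and 2 and TPdh-/- replicates 1, 2 and 3. Cd8b1, which encodes a CD8 chain, had a peak in all 5 libraries, and Cd8a in WT replicate 1 alone. Cd4 had a peak in both WT and in no TPdh-/- library. Of 5 B cell markers 1 had a peak in WT replicate 1 and none elsewhere, the NK marker Ncr1 had none, and of 5 myeloid markers Spi1 alone had one, in all 5 libraries. The part of other cells in the results below was not tested.

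The lncRNA start sites that carry the main patterns are shown first, each from 250 bases before to 50 bases after the annotated start, 5′ to 3′ on the strand of the gene (GRCm38.p6). Capitals mark letters that match, on either strand, 1 of 10 promoter motifs that are spelled out after the sequences. Snhg8 and Gm6410 were among the 8 strongest members, Malat1 ranked high in 4 of 5 lists, and Snhg6 had peaks in WT alone. Among members whose groups did not overlap, 5430416N02Rik had the largest difference toward WT and 2610035D17Rik toward TPdh-/-.
Snhg8, chr3:123508355-123508654, minus strand: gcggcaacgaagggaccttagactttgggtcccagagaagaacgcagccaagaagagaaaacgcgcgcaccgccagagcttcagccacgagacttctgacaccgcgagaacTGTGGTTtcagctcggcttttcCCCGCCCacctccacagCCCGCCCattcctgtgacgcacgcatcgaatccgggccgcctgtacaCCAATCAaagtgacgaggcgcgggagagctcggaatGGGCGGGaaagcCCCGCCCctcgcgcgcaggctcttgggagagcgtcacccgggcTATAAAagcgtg
Gm6410, chr8:4678212-4678511, plus strand: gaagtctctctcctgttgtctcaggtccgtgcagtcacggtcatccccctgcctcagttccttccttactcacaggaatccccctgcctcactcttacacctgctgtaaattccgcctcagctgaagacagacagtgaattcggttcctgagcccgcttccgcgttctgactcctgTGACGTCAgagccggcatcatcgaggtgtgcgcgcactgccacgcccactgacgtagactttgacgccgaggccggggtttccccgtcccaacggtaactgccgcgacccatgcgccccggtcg
Malat1, chr19:5802623-5802922, minus strand: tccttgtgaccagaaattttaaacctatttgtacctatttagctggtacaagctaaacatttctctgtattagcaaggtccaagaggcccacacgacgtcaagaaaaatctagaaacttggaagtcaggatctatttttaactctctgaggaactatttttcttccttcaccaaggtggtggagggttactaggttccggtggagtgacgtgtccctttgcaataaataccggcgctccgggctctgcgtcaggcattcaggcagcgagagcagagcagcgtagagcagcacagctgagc
Snhg6, chr1:9944054-9944353, minus strand: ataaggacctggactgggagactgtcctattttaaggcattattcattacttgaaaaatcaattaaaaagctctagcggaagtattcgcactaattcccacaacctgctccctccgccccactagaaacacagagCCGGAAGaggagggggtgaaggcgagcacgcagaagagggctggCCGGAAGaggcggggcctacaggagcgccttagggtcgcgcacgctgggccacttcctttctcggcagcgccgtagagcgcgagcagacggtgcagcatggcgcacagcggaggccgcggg
5430416N02Rik, chr5:100429486-100429785, minus strand: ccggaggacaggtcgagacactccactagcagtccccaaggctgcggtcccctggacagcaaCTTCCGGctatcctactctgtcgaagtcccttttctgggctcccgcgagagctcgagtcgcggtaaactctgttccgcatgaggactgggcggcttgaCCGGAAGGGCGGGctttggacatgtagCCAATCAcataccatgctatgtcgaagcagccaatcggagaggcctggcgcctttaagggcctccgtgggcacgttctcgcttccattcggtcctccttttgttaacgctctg
2610035D17Rik, chr11:113173028-113173327, minus strand: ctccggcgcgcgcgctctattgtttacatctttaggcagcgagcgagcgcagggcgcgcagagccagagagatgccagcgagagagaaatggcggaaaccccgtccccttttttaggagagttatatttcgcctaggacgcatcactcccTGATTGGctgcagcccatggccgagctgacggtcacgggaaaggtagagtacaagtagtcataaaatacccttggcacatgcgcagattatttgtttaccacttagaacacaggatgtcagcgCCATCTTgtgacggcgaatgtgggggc

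These windows differ in their motifs and in their CpG content. Snhg8 held 7 matches, 4 of them SP/KLF, and 30 CpG dinucleotides. Snhg6 held 2 ETS matches, and 5430416N02Rik held 4 matches, of which 2 were ETS, 1 SP/KLF and 1 NFY. Gm6410 held 1 CRE, 2610035D17Rik held 1 NFY and 1 YY1, and Malat1 held none of the 10 motifs and 10 CpG. Over all 216 members that covered an lncRNA start, 20.4% of windows held the SP/KLF motif (GGGCGGG), 11.1% the ETS motif (CCGGAAG), 11.6% the RUNX motif (TGTGGTT) and 13.9% the TATA box (TATAAA). Among all 10155 annotated lncRNA genes these shares were 10.7%, 4.5%, 5.90% and 13.6%, and among the 5223 coding starts covered by a coding promoter region 43.9%, 23.8%, 4.10% and 5.27%. The NRF1 (CGCNTGCG), AP-1 (TGANTCA) and TCF/LEF (CTTTGAA) motifs were each held by 7.41% of the 216 windows, and by 3.25%, 8.87% and 5.75% of all lncRNA starts. The NFY motif (CCAATCA) was held by 6.02%, the YY1 motif (AAGATGG) by 5.09% and the CRE motif (TGACGTCA) by 3.24%, beside 6.03%, 6.65% and 1.00% of all lncRNA starts. No motif in the list contains another, though neighbouring matches can share letters. A match is a description of the letters, and the shares were not tested.

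By gene type, 246 of the 383 regions were at lincRNA genes, 76 at antisense genes, 49 at processed transcripts, 11 at sense intronic genes and 1 at a sense overlapping gene. The region covered the lncRNA start in 216 cases. Of the other 167, 77 lay before the start and 90 after it, with a median distance of 1579 and 1320 bp. The nearest coding start was a median of 25639 bp away, with 90 regions within 10 kb of one and 114 beyond 50 kb, and 81 regions lay inside a coding gene. Regions were between 688 and 5092 bp wide, with a median of 1517 bp. Chromosome 1 held 38 of them and chromosome X held 4. Of the 383, 7 came within 3000 bp of the start of a coding transcript in the RefSeq annotation, among them Zswim6 and Ptpmt1, which GENCODE types as processed transcripts.

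The first question was how many lncRNA promoters were acetylated in each genotype. In WT, 380 (replicate 1) and 324 (replicate 2) of the 383 had a peak, and in TPdh-/- 190, 184 and 317 (replicates 1, 2 and 3). Both WT libraries were above all 3 TPdh-/- libraries, but WT replicate 2 and TPdh-/- replicate 3 were nearly level at 84.6% and 82.8%. The WT mean was 91.9% ± 10.3 (SD, n = 2) and the TPdh-/- mean 60.1% ± 19.6 (SD, n = 3), a gap of 31.8 percentage points that was 19.6 points without WT replicate 1. Membership itself required a peak in 2 or more of these libraries, and 48 members met that through WT alone. The shares are therefore a description, and no test of them is used here. Among coding promoters, chosen by the same requirement, the gap was 27.0 points. The lncRNA gap was larger than the coding gap by 4.73 points, and without WT replicate 2 this difference was -1.88. The lists also differed in length, though the shares did not follow length strictly. TPdh-/- replicate 1 had the shortest list and 190 members with a peak, and TPdh-/- replicate 2 had 184. When each list was cut to its 4920 strongest peaks, regions and classes were formed anew, with 203 members. The lncRNA gap was then 0.575 points and the difference from coding promoters -5.04. The part of list length in the gap was not tested.

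**Figure D1:**
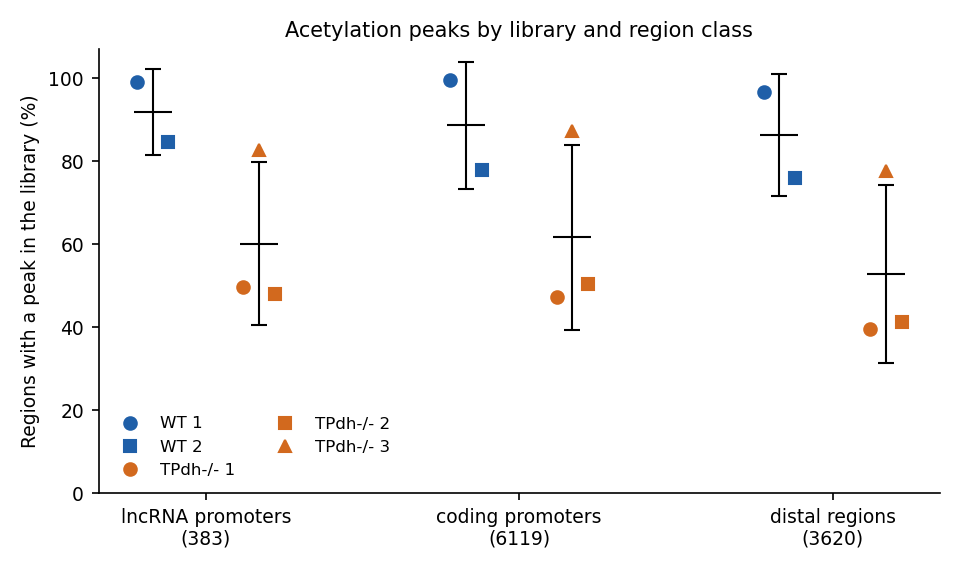
Share of regions with a peak (%) in each library, for lncRNA promoters, coding promoters and distal regions. Each symbol is 1 library, and bars give the group mean and SD (n = 2 WT, n = 3 TPdh-/-). At lncRNA promoters the WT libraries sit at 99.2% and 84.6% and the TPdh-/- libraries at 49.6%, 48.0% and 82.8%.

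Of the 383 lncRNA promoters, 130 (33.9%) had a peak in all 5 libraries, beside 29.7% of all 10418 consensus regions. The second most frequent pattern was a peak in both WT libraries and TPdh-/- replicate 3, at 65 members (17%). Peaks in WT alone, in both libraries, were found at 48 members (12.5%), beside 10.5% of all regions, and this count was 113 without TPdh-/- replicate 3 and 2 with lists of equal length. No member had a peak in all 3 TPdh-/- libraries and neither WT library, beside 0.048% of all regions (5 regions), and this count was 6 with lists of equal length and 2 without WT replicate 1. The pattern of WT replicate 1 with TPdh-/- replicate 3 was found at 7.05% of members and 13.3% of all regions. The single member with peaks in TPdh-/- libraries alone was AC132320.1, at fold enrichments of 2.13 and 2.16 in TPdh-/- replicates 2 and 3, which are near the weak end of those lists (10.9 and 23.7 percentile).

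**Figure D2:**
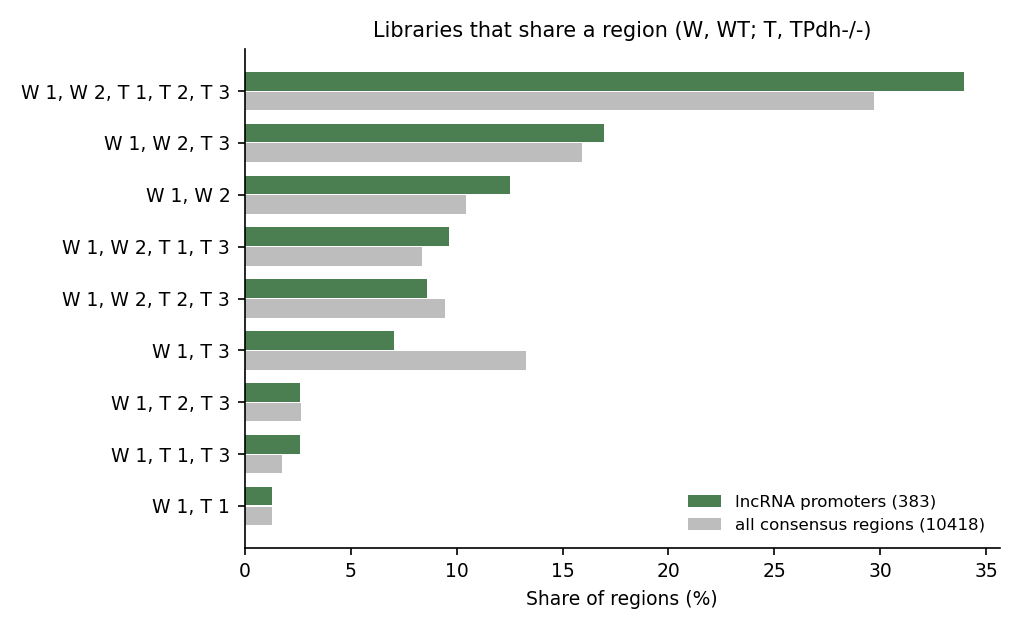
Share of regions (%) by the libraries in which they have a peak, for lncRNA promoters (green) and all consensus regions (grey), with W for WT and T for TPdh-/-. The 9 most frequent patterns among lncRNA promoters are drawn, from 33.9% in all 5 libraries down to 1.31% in WT replicate 1 with TPdh-/- replicate 1.

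Strength is given as fold enrichment over the background that MACS2 estimated, and as the percentile of the peak's −log10 q within its own library, where the strongest peak is at 100. Nuclear and snoRNA host lncRNAs came first among the listed genes. Of 23 annotated genes on this list 8 had a member, 7 had a region within 3000 bp of a coding start, and 8 had none. All 8 members had a peak in both WT libraries, 4 had one in TPdh-/- replicates 1 and 2 each, and 6 in TPdh-/- replicate 3. Over all 383 members the shares were 99.2% and 84.6% in WT and 49.6%, 48.0% and 82.8% in TPdh-/-. Malat1, an abundant lncRNA of nuclear speckles, had fold enrichments of 2.78 and 2.86 in WT and 2.30, 2.93 and 2.95 in TPdh-/-. Its percentile was 98.6 or higher in 4 libraries and 70.4 in TPdh-/- replicate 1. Neat1, the scaffold of paraspeckles, shares its region with Frmd8os on the other strand. That region had fold enrichments of 2.14 and 2.22 in WT and 2.49, 1.96 and 1.95 in TPdh-/-, and the groups overlapped.

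The Snhg genes carry snoRNAs, which guide the modification of ribosomal and other RNAs, in their introns. Snhg8 (chr3:123507659-123509413), host of Snora24, had fold enrichments of 2.89 and 4.18 in WT and 3.79, 4.34 and 4.13 in TPdh-/-, with WT replicate 1 the lowest of the 5. Snhg15, host of Snora9, had 2.67 and 2.99 in WT and 2.83, 3.08 and 2.57 in TPdh-/-. Neither gene separated the groups. Snhg17 had peaks of 3.33 and 2.86 in WT and of 2.72 in TPdh-/- replicate 3 alone. Snhg20, which carries a small Cajal body RNA, had peaks of 3.84 and 2.85 in WT and of 2.83 in TPdh-/- replicate 3 alone. Snhg6 (chr1:9943212-9944667), host of Snord87, had peaks of 2.69 and 2.97 in WT and none in TPdh-/-. Snhg12, host of Snora16a, Snora44, Snora61 and Snord99, had peaks of 2.90 and 2.77 in WT and none in TPdh-/-.

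Of all lncRNA genes with a member, 9 contained an annotated snoRNA on their own strand, 5 of them Snhg genes of the list just described. Their members had a peak in WT replicates 1 and 2 at 9 and 8 genes and in TPdh-/- replicates 1, 2 and 3 at 2, 2 and 4. Of all 383 members, 380 and 324 had one in WT and 190, 184 and 317 in TPdh-/-. Of the 9, 5 had peaks in WT alone, as did 48 of all 383 members (12.5%) and 10.5% of all 10418 consensus regions. With lists of equal length, 2 members in all had peaks in WT alone. These 5 were Snhg6, Snhg12, 2410006H16Rik, 1110038B12Rik and AI506816, and the group was formed after the values were seen. 2410006H16Rik, host of Snord49a, Snord49b and Snord65, had fold enrichments of 2.73 and 3.14 in WT, and its region covered both Snord49 genes. 1110038B12Rik, host of Snord52, had 2.91 and 2.61 in WT. AI506816, which contains Mir3096 (a snoRNA by its annotated type), had 2.33 and 2.27 in WT, the latter at the 5.81 percentile of its list. 1810032O08Rik, host of Snord1a, Snord1b and Snord1c, had a peak of 3.14 in WT replicate 1 and of 2.76 in TPdh-/- replicate 3.

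Of 18 annotated lncRNAs known from T cells or immunity, 9 had a member and 2 had a region at a coding start. These 9 genes held 13 members, of which 13 and 11 had a peak in the WT libraries and 4, 7 and 12 in TPdh-/- replicates 1, 2 and 3. The shares over all 383 members were 99.2% and 84.6% in WT and 49.6%, 48.0% and 82.8% in TPdh-/-. Mir155hg, the precursor of miR-155, which is induced when T cells are activated, had a region at its first start and another downstream. The first (chr16:84702746-84704148) had fold enrichments of 2.86 and 2.33 in WT and 2.41, 2.51 and 2.45 in TPdh-/-, with overlapping groups. The downstream region (chr16:84713303-84714427) covered the miR-155 hairpin itself and had peaks of 2.79 and 2.85 in WT and of 2.60 in TPdh-/- replicate 3 alone. Dleu2, host of miR-15a and miR-16-1, had low enrichment at both of its regions. Its upstream region (chr14:61681612-61684663) had fold enrichments of 1.84 and 1.90 in WT and 1.96, 1.89 and 1.93 in TPdh-/-. Its downstream region had peaks of 2.08 in WT replicate 1 and of 2.19 and 2.26 in TPdh-/- replicates 2 and 3.

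Pvt1, the neighbour of Myc, had peaks of 2.24 and 2.37 in WT and of 2.27 and 2.24 in TPdh-/- replicates 2 and 3. Its percentiles were 62.4 and 52.9 in WT and 19 and 27.9 in those TPdh-/- libraries. Lncpint, a target of p53, had an upstream region at 2.24 and 2.35 in WT and 2.25, 2.33 and 2.35 in TPdh-/-, with no separation of the groups. Its downstream region had weak peaks of 2.06 and 2.53 in WT and none in TPdh-/-. Gm14005, known as Morrbid, which regulates Bcl2l11 in cis, had fold enrichments of 2.08 and 2.24 in WT and 2.42, 2.18 and 2.12 in TPdh-/-. Trp53cor1, known as lincRNA-p21, had peaks of 2.04 and 2.83 in WT and of 2.44 in TPdh-/- replicate 3. Gm19585, Gm26740 and A630023P12Rik had no peak in TPdh-/- replicate 1 and had one in TPdh-/- replicate 3.

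The miRNAs of these and other host genes group by seed (bases 2 to 8, in capitals). In all, 12 lncRNA genes with a member contained an annotated miRNA, and these genes held 14 members. A peak was present at 14 and 13 of these members in WT and at 5, 8 and 13 in TPdh-/- replicates 1, 2 and 3. Among all 383 members it was present at 380 and 324 in WT and at 190, 184 and 317 in TPdh-/-. The 12 include Zswim6, whose member lies 701 bp from a coding start of the same gene in RefSeq. The mature sequences printed here (RefSeq, GRCm38.p6) are the 5p arms from Mir155hg, from Dleu2 and from the let-7 hosts 6720427I07Rik and Lncppara.
miR-155-5p (Mir155hg, chr16:84714143-84714165, plus strand): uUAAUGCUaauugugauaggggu
miR-15a-5p (Dleu2, chr14:61632075-61632096, minus strand): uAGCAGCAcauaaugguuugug
miR-16-5p (Dleu2, chr14:61631936-61631957, minus strand): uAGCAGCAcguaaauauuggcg
let-7a-5p (6720427I07Rik, chr13:48538239-48538260, minus strand): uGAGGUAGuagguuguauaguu
let-7b-5p (Lncppara, chr15:85707325-85707346, plus strand): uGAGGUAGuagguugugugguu
let-7c-5p (Lncppara, chr15:85706616-85706637, plus strand): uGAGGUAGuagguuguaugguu
let-7d-5p (6720427I07Rik, chr13:48536078-48536099, minus strand): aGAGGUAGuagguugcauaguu
let-7f-5p (6720427I07Rik, chr13:48537889-48537910, minus strand): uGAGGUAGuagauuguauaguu

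miR-15a and miR-16 share the seed AGCAGCA, and the 5 let-7 miRNAs share GAGGUAG. The let-7 family restrains growth and cell cycle genes. The promoter of 6720427I07Rik, which contains let-7a-1, let-7d and let-7f-1, had peaks of 2.86 and 2.82 in WT and of 3.15 and 2.54 in TPdh-/- replicates 2 and 3. The promoter of Lncppara, which contains let-7b and let-7c-2, had peaks of 2.58 and 2.79 in WT and of 2.40 and 2.26 in the same TPdh-/- libraries. Both lacked a peak in TPdh-/- replicate 1, whose list is the shortest. Both hosts were chosen for the small RNA they hold, after the values were seen.

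Of the X inactivation lncRNAs, 2 of 5 had a member and Xist, Tsix and Firre had no consensus region. Jpx, an activator of Xist, had peaks of 2.86 and 3.55 in WT and of 3.61 and 2.80 in TPdh-/- replicates 2 and 3. Ftx, another lncRNA of the X inactivation centre, had peaks of 3.02 and 2.65 in WT and of 2.76 in TPdh-/- replicate 3. Of 18 imprinted or developmental lncRNAs, such as H19, Meg3 and Hotair, 17 had no consensus region. Peg13, an imprinted lncRNA inside Trappc9, was the exception, with peaks of 2.18 and 2.35 in WT and of 2.47 in TPdh-/- replicate 3, all below the 23 percentile of their lists.

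**Figure D3:**
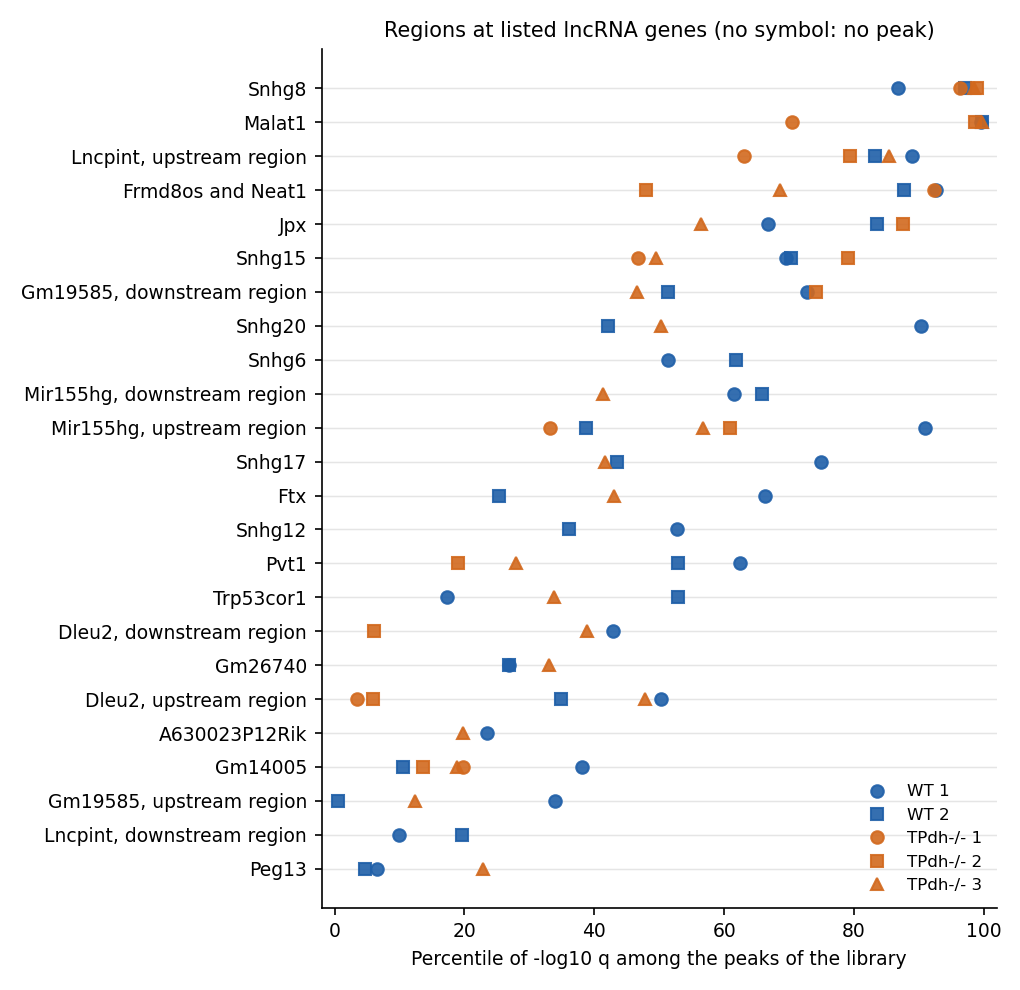
Percentile of −log10 q within the library (x axis) at 24 regions of listed lncRNA genes, 1 symbol per library with a peak, WT in blue and TPdh-/- in orange. Malat1 and Snhg8 sit near 100 in most libraries, while Snhg6, Snhg12 and the downstream region of Lncpint carry WT symbols alone.

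The 8 members with the highest mean percentile were Gm6410 (99.2), Gm14321 (99.0), C920006O11Rik (98.9), Fbxl12os (98.9), Gm26660 (98.7), Gm11205 (97.8), Gm13421 (97.7) and Snhg8 (95.5). All had a peak in all 5 libraries by the choice, and all had a CpG-rich window. Gm6410 (chr8:4677261-4678919) had fold enrichments of 3.79 and 3.52 in WT and 3.62, 4.22 and 3.95 in TPdh-/-. Gm14321 (chr2:167775242-167778707), 3466 bp wide, had 3.02 and 2.79 in WT and 2.99, 3.04 and 3.01 in TPdh-/-. Neither separated the groups. Fbxl12os (chr9:20606829-20608080), antisense to a coding gene by its type, had 4.35 and 4.19 in WT and 3.82, 3.81 and 3.99 in TPdh-/-, with both WT above all TPdh-/- (limma, adjusted p = 0.691). Gm11205 had 3.37 and 3.46 in WT and 3.50, 3.94 and 3.56 in TPdh-/-, with both WT below all TPdh-/- (limma, adjusted p = 0.710). Gm13421 had 4.66 and 4.26 in WT and 3.85, 3.85 and 5.08 in TPdh-/-, with the highest value in TPdh-/- replicate 3.

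Among the 48 members with peaks in WT alone, the strongest by mean percentile were Gm46204, 2410006H16Rik, Snhg6, Gm35572, Platr22 and Gm11496. Gm46204 (chr10:121504853-121507101) had fold enrichments of 2.33 and 2.86. Gm35572 had 2.84 and 3.18, Platr22 had 2.2 and 2.55, and Gm11496 had 2.14 and 2.40. Their mean percentiles lay between 53.7 and 58.3, where members with a peak in all 5 libraries had a median of 68.1. Over all 48 the median was 27.0.

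The second question was whether enrichment differed at promoters with a peak in every library. limma was fitted to the log2 fold enrichment of all 3094 such regions after centring each library on its median, with Benjamini-Hochberg adjustment over all of them. No region had an adjusted p under 0.05 (0%) in limma, and 253 (8.18%) had an unadjusted p under 0.05. Of the 130 lncRNA promoters none was called, and 10 (7.69%) had an unadjusted p under 0.05, 4 higher and 6 lower in WT. Their lowest adjusted p in limma was 0.446. Both WT libraries were above all 3 TPdh-/- libraries at 12 members (9.23%, beside 10.2% of all 3094 regions) and below them at 28 (21.5%, beside 16.4%). Regions that lacked a peak in some library, such as the 48 members of WT alone, did not enter these comparisons. The peak requirement acts on the same values. Neither the lack of calls nor these counts can therefore show how acetylation differed over all members. The median log2 difference, WT minus TPdh-/-, was -0.026 in members and -0.016 over all regions. Centring removes a shift shared by all regions, so these medians cannot show one. Without centring they were -0.0051 in members and 0.0046 over all regions. Fold enrichment is itself a ratio over the background of each library, taken here where every library had a peak. The medians without centring therefore cannot show a global shift either.

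2610035D17Rik (chr11:113172495-113175019), whose nearest coding start is Sox9 at 390271 bp, had fold enrichments of 2.03 and 2.28 in WT and 2.73, 2.64 and 3.10 in TPdh-/-. Both WT values were below all TPdh-/- values, with a log2 difference of -0.41 (SE 0.0965; limma, adjusted p = 0.446). A430088P11Rik, antisense inside Fam83f, had 1.94 and 1.96 in WT and 2.47, 2.2 and 2.19 in TPdh-/- (log2 difference -0.25; limma, adjusted p = 0.577). Gm30781, 30157 bp from Gimap3 of the GIMAP family of lymphocyte GTPases, had 1.87 and 2.06 in WT and 2.22, 2.44 and 2.21 in TPdh-/- (log2 difference -0.24; limma, adjusted p = 0.577).

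On the other side, 5430416N02Rik (chr5:100428988-100430500) had fold enrichments of 3.38 and 4.12 in WT and 3.01, 3.00 and 2.99 in TPdh-/-. The log2 difference was 0.29 (SE 0.0952; limma, adjusted p = 0.566), and the 3 TPdh-/- values lay closer together than the WT pair. Gm44949, antisense inside Zfp710 and 3164 bp from the start of Idh2, which encodes the mitochondrial isocitrate dehydrogenase that uses NADP, had 2.68 and 3.05 in WT and 2.29, 2.41 and 2.48 in TPdh-/- (log2 difference 0.24; limma, adjusted p = 0.577). 2810405F17Rik had 3.65 and 4.41 in WT and 3.58, 3.40 and 3.20 in TPdh-/- (log2 difference 0.22; limma, adjusted p = 0.577). These 6 genes were chosen for their size of difference, so their values are a description.

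**Figure D4:**
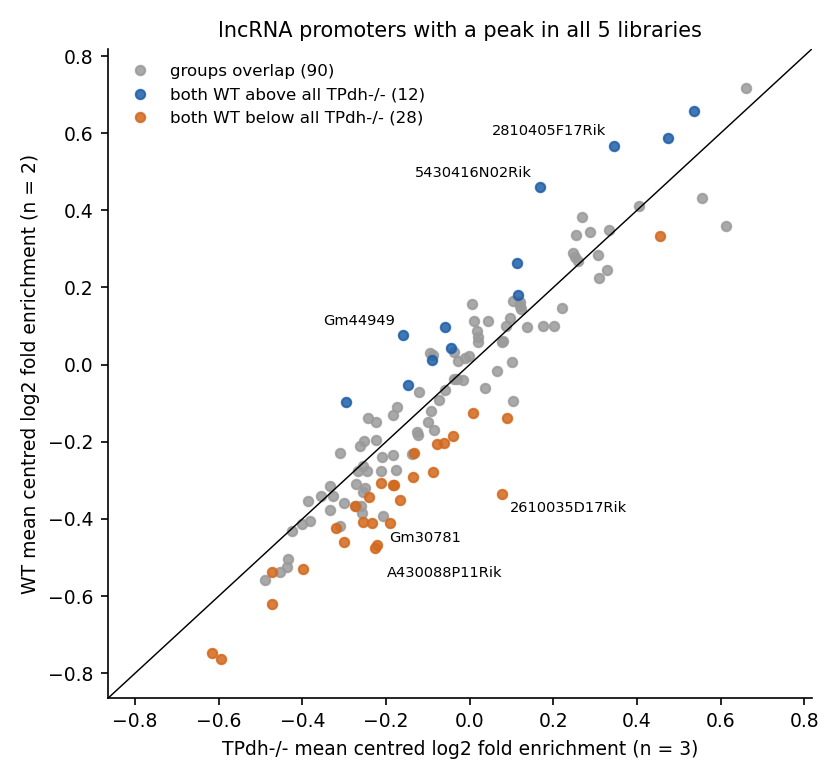
Mean centred log2 fold enrichment in WT (y axis, n = 2) against TPdh-/- (x axis, n = 3) for the 130 lncRNA promoters with a peak in all 5 libraries, with the line of equality. Blue marks the 12 members with both WT above all TPdh-/- libraries and orange the 28 with both below; none was called by limma.

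lncRNA promoters were weaker than coding promoters in every library. Their median percentile was 61.2 and 53.1 in WT and 47.3, 54.0 and 50.2 in TPdh-/-, where coding promoters had 73.2 and 60.5, and 59.2, 61.7 and 62.0. The mean difference was -10.2 percentile points ± 2.37 (SD over libraries, n = 5), with the same sign in 5 of 5 libraries (exact sign-flip permutation test, two-sided, p = 0.063, the smallest p that 5 libraries allow, adjusted p = 0.075 over 6 tests). The log2 fold enrichment was lower by a mean difference of -0.21 ± 0.06 (SD, n = 5, the same exact permutation p). Their peaks were wider, by 82.4 bp ± 22.1 (SD, n = 5, the same exact permutation p). Against distal regions, members were higher by 9.48 percentile points ± 2.36 (SD, n = 5) and by 0.042 ± 0.011 in log2 fold enrichment (SD, n = 5), each with the same exact permutation p. Peak width differed from distal regions by 1.70 bp ± 16.0 (SD, n = 5, exact sign-flip permutation test, p = 0.938, adjusted p = 0.938). Class was set by the distance of a region's edges from start sites, which ties width to class. Both width differences are therefore a description, and no conclusion is drawn from their tests.

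CpG content differed between the classes as well. A CpG-rich window (300 bases with at least 50% G and C and an observed-to-expected CpG ratio of at least 0.6) was present in 131 members (34.2%), in 81.0% of coding promoters and in 9.01% of distal regions. Among CpG-rich regions alone, the percentile of members less that of coding promoters was 0.255, and among regions with no such window it was 1.05. The differences in log2 fold enrichment were then -0.073 and -0.064, and those in peak width 108 bp and -41.2 bp. This division was added after the data were seen. CpG-rich members had a peak in all 5 libraries in 45.8% of cases and the others in 27.8%. CpG-rich members had a peak in 100% and 88.5% of cases in WT and 57.3%, 61.8% and 88.5% in TPdh-/-, and the others in 98.8% and 82.5%, and 45.6%, 40.9% and 79.8%.

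**Figure D5:**
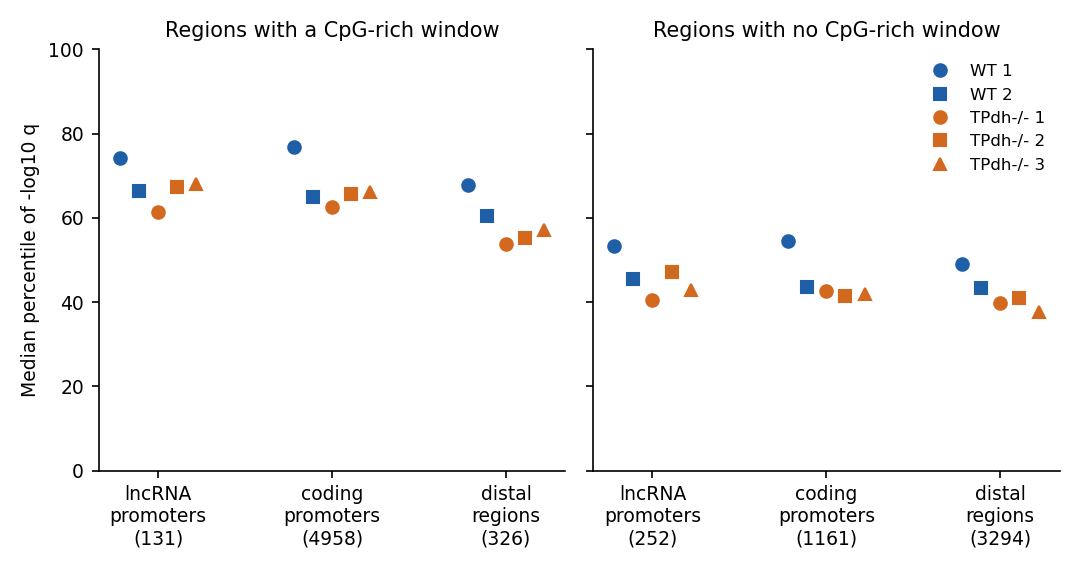
Median percentile of −log10 q in each library (symbols) by region class, for regions with a CpG-rich window (left) and without one (right). Within each panel lncRNA and coding promoters sit close together, and CpG-rich lncRNA promoters sit between 61.3 and 74.3 where the others sit between 40.5 and 53.3.

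Processed transcripts, among them Snhg8, Snhg15 and Snhg17, had a CpG-rich window in 63.3% of 49 regions, lincRNA genes in 32.9% of 246 and antisense genes in 21.1% of 76. The share with a peak in all 5 libraries was 40.8%, 32.5% and 35.5% in these types. Regions that covered the lncRNA start were CpG-rich in 47.7% of cases and those beside it in 16.8%. Members inside a coding gene had a median mean percentile of 40.0 and the others of 49. Repeats made up more than 50% of the sequence in 9 members.

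For 18 members the nearest coding gene was on a list of 105 T cell genes. A peak was present at 18 and 15 of them in WT and at 7, 7 and 17 in TPdh-/- replicates 1, 2 and 3. Over all 383 members these shares were 99.2% and 84.6%, and 49.6%, 48.0% and 82.8%. Of the 18, 4 had a peak in all 5 libraries, beside 33.9% of all members and 29.7% of all 10418 consensus regions. Gm29675, 42278 bp from Irf4, a transcription factor of activated T cells, had fold enrichments of 1.97 and 2.12 in WT and 2.05, 2.07 and 2.03 in TPdh-/-, with overlapping groups. A430093F15Rik, 8134 bp from Cd5, which encodes a negative regulator of T cell receptor signalling, had 2.25 and 2.03 in WT and 2.28 and 2.03 in TPdh-/- replicates 1 and 3. Gm16565, 7060 bp from Cd247, which encodes the CD3 zeta chain, had 2.90 and 2.82 in WT and 2.66 and 2.88 in TPdh-/- replicates 2 and 3. Peaks in WT alone were found at 1 of the 18, beside 12.5% of all members and 10.5% of all consensus regions.

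Several lay by transcription factors of T cells. Gm26551, inside Tcf7, which encodes TCF1 of memory T cells, had peaks of 1.71 and 1.95 in WT and of 1.99 in TPdh-/- replicate 3. Gm20705, inside Foxp1, which keeps T cells quiescent, had 1.73 and 1.75 in WT and 1.80 and 1.76 in TPdh-/- replicates 2 and 3. Gm27162, 229037 bp from Ets1, had 1.54 and 1.69 in WT and 1.75, 1.78 and 1.69 in TPdh-/-. Gm45054 and Gm32633, both by Klf13, had 1.95 and 1.88, and 1.70 and 1.79, in WT. In TPdh-/-, Gm45054 had 2.13, 1.88 and 1.93, and Gm32633 had 1.82 in replicate 3 alone. The stronger region of Gm19585, 328968 bp from Satb1, a chromatin organizer of T cells, had 1.95 and 2.07 in WT and 2.29 and 1.92 in TPdh-/- replicates 2 and 3. Gm14009, 61248 bp from Bcl2l11, which encodes the proapoptotic BIM, had 2.11 and 2.11 in WT and 2.11 and 2.34 in TPdh-/- replicates 1 and 3.

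The widest regions were Gm20139 (5092 bp), Gm26812 (4412 bp) and Gm16534 (4014 bp). Gm20139, whose nearest coding gene is Tnfaip3, an inhibitor of NF-kB, had peaks of 1.56 in WT replicate 1 and of 1.87 and 1.74 in TPdh-/- replicates 2 and 3. Gm26812 had peaks of 1.79 in WT replicate 1 and of 2.18 and 1.87 in TPdh-/- replicates 1 and 3. Gm16534 had 1.55 and 1.64 in WT and 1.80, 1.80 and 1.71 in TPdh-/-, with both WT values the lowest (limma, adjusted p = 0.620). At the edges of the rule, the member farthest from its lncRNA start was 4933409D19Rik at 2966 bp, and the nearest region outside the limit was by Gm35934 at 3037 bp. The member nearest to a coding start was Gm47242, 3054 bp from Fam111a, and the region just inside that limit was by Gm11339, 2952 bp from Scgn.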

How the data were processed

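Acetylated-histone ChIPseq of TM cells was analysed from 5 peak lists, 2 WT and 3 TPdh-/-. The authors aligned reads to GRCm38/mm10 with BWA-mem 0.7.17, kept uniquely mapped reads and removed blacklisted regions with SAMtools 1.15.1, and called broad peaks per library with MACS2 2.2.6. The deposited lists give each peak a fold enrichment (a linear ratio over the background estimated by MACS2), and the authors' −log10 p and −log10 q, the lowest −log10 q being 1.00 to 1.03. The deposited score column was not used. No input control is named in the sources used here. The authors' differential test starts from reads and was not repeated.

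Peaks were merged in Python 3.11.15 with pandas 2.3.3 (bedtools 2.31.1 gave the same 18410 regions) and classed by GENCODE M21. On simulated lists, 6638 of 6638 regions were recovered in their libraries and class. A region's value in a library is its peak of highest fold enrichment. Percentiles rank −log10 q within a library. Classes were compared within libraries by exact permutation tests, and genotypes by limma 3.58.1 (R 4.3.3), which was tested on simulated data. The members, gene lists, motifs and tests were chosen with earlier results of these data known. Named are listed lncRNA genes with a member, the 8 strongest members of all 5 libraries, the 6 strongest of WT alone, those of TPdh-/- alone, the 3 largest separated differences each way, the 3 widest, those nearest the limits, and up to 10 beside T cell genes. Hosts of small RNAs outside these choices, and 2 of the members near a RefSeq coding start, were added after the values were seen. Alternatives were −log10 q of at least 2 or 5, equal list lengths, 3 or more libraries, 50% overlap, 1000 bp windows, gene starts, added gene types, centring, other measures, the replicate block, each library left out and, added later, CpG content and RefSeq coding starts.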

Additional observations from a re-analysis of the deposited data

How the results depend on the processing

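Of 188 values recomputed under alternatives, 153 moved by no more than the spread between libraries (counts by no more than 1.5 times), 30 moved further and 5 changed sign from a value larger than that spread. The width difference from distal regions, 1.70 bp and smaller than its spread, was negative in 10 alternatives. Whether the replicate numbers pair the samples is not known. Deviations from the group mean correlated at -0.137 for number 1 and 0.079 for number 2. With 2 WT libraries, their deviations mirror each other, so these correlations cannot decide the question. With a replicate block the gap in members with a peak was 43.1 points and its excess over coding promoters 3.26 points. limma then called 0 members, as it did in the other alternative fits with 2 WT libraries. In these fits, between 7 and 10 of the members tested had an unadjusted limma p under 0.05. The exception was 1 of 12 at a −log10 q of at least 5. Where a left-out library leaves 1 WT sample, that sample is assumed to vary like the others, so calls of those fits are not given.

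With lists of equal length the gap was 0.575 points, its excess over coding promoters -5.04, members 203, members of WT alone 2 and members of all 3 TPdh-/- and no WT library 6; the percentile differences from coding and distal regions were -4.49 and 5.40, the width differences 137 and -39.5 bp, and the log2 fold difference from distal regions 0.065. At a −log10 q of at least 5 there were 113 members, 12 in all 5 libraries and 18 of WT alone; the percentile differences were -0.431 (coding) and 1.77 (distal), the width differences 163 and -81.3 bp, and the log2 fold difference from distal regions 0.115. At a −log10 q of at least 2, members of WT alone were 29, the percentile differences -6.90 and 6.20, and the width differences 105 and -17.6 bp. In regions of at least 3 libraries, members of WT alone were 0 by construction and the width difference from distal regions -27.2 bp. Start sites within 1000 bp gave a log2 fold difference from distal regions of 0.075. Among CpG-rich regions alone, the differences from coding promoters were 0.255 (percentile), -0.073 (log2 fold) and 108 bp, and among the others 1.05, -0.064 and -41.2 bp. With 1 library left out, the excess of the gap ranged from -1.88 to 6.61 points, members of WT alone from 50 to 113, members of all 3 TPdh-/- and no WT library from 0 to 2, and the gap itself from 19.6 to 42.6 points. The count of members in all 5 libraries has no value with a library left out, and the counts of WT alone and of all 3 TPdh-/- libraries have none where a library of that genotype was left out. Apart from these, the cause of a change was not tested. Unknown depth limits any statement that a promoter without a peak lacked acetylation.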

Other observations

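A further 227 merged regions at lncRNA promoters away from coding starts had a peak in 1 library alone and so were not members. WT replicate 1 held 180 of them, at a median percentile of 24.0 of its list, and WT replicate 2 held 21, at a median percentile of 15.1. TPdh-/- replicates 1 and 2 held 5 each, at median percentiles of 25.1 and 16.4, and TPdh-/- replicate 3 held 16, at 15.4. Listed lncRNA genes with a peak in WT replicate 1 alone were Snhg9, Epb41l4aos, Nron, Bach2os, Ifngas1 and Kcnq1ot1, and Mir142hg, the precursor of miR-142 of blood cells, had one in WT replicate 2 alone.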
